A study of Mus musculus with 6 samples.

Results

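Changes in 9 microRNA (miRNA) genes of 3 loci were followed as mouse embryonic stem cells (ESCs) were turned towards neuronal cells (NCs) with retinoic acid (RA). The loci were mir-99a, let-7c-1 and mir-125b-2 on chromosome 16, mir-99b, let-7e and mir-125a on chromosome 17, and mir-100, let-7a-2 and mir-125b-1 on chromosome 9. The members were taken by gene name and were 9 of the 898 miRNA genes in the deposited table. ESCs were E14Tg2a, a feeder-independent line, at passage 37 to 40, kept in leukemia inhibitory factor (LIF). NCs were monolayers of the same line and passages grown without LIF and with 1 µM RA for 48 hours. No genetic change was labelled in either group. Each group had 3 small-RNA libraries, each from the total RNA of 2 plates of 60 mm. The labels describe separate replicate samples of 1 cell line, so p-values measure the spread between these cultures only. In such bulk RNA, fewer cells with a miRNA and less of it per cell cannot be told apart.

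The deposited values are the authors' group means of normalized counts, in which the reads of a library are scaled by its size factor. From the decimals of these means the whole reads behind them could be worked out library by library. The letters A, B and C run from the largest to the smallest size factor of a group and stand for no labelled replicate. Library C stood apart in both groups. Over 148 miRNAs in ESCs and 143 in NCs with a mean of 100 or more, the log2 ratio of libraries A and B had an SD of 0.20 and 0.17. The log2 ratio of library C to their mean had an SD of 1.40 and 1.13. Values are therefore given for all 6 libraries and also for libraries A and B alone, or with a term for library C. This term assumes the same shift of library C in both groups, although nothing ties the C libraries to each other. For some members the shift differed, as for mir-100 with 5.35-fold above A and B in ESCs and 1.10-fold in NCs. P-values given with this term rest on that assumption. Resolved reads ranged from 175534 to 660534 per library.

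The group names were checked against known miRNAs. All 7 ESC markers that were tested were called lower in NCs, against 5.81% of all genes tested. Among them was mir-302a, of a cluster typical of pluripotent cells, with a mean of 299 in ESCs and 15.0 in NCs. The 3 copies of mir-124, which defines mature neurons, had means of 2.09 to 2.70 in ESCs and 5.19 to 6.02 in NCs, so NC is used here only as the name of the group. Of the 6 neuronal markers tested 0 were called, where 9.79% of all genes were called higher. With a term for library C 5 were higher, where 23.9% of all genes were. These were mir-9-1, mir-9-2, mir-9-3, mir-218-1 and mir-218-2. They are gene copies of mir-9 and of mir-218 with nearly equal values, so they are not independent counts. mir-9-1 had means of 423 and 768. Of the markers of other tissues, 4 of muscle were listed at 0 in both groups. The liver miRNA mir-122 had means of 0.411 and 0, mir-144 and mir-451a of red blood cells had at most 2.27, and mir-142 of blood cells had means of 924 and 357 (limma-voom adjusted p-value 0.356). With the term for library C mir-142 was called lower (log2 FC -1.60, adjusted p-value 0.000569). Their part in the results was not tested.

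A miRNA recognizes target mRNAs mainly through its seed, bases 2 to 8 of the mature strand. At each of these loci a miR-99/100, a let-7 and a miR-125 gene lie in the same direction and are thought to be cut from a common primary transcript, which was not measured here. The let-7 family represses growth and pluripotency genes and accumulates as cells differentiate. In pluripotent cells the protein LIN28 binds the loop of let-7 precursors, at a GGAG motif in many of them, and blocks their maturation. The miR-125 family represses Lin28 itself, and the miR-99/100 family is known for targeting the growth kinase mTOR.

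The mature sequences are shown because they decide which family a read belongs to and whether its gene can be told. All 9 members matched an entry of the RefSeq table for GRCm38.p6 by mature name. They give 8 distinct mature sequences and 3 seeds, written in capitals. The first 3 sequences form the miR-99/100 family.
miR-99a-5p: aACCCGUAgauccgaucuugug
miR-99b-5p: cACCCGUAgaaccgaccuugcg
miR-100-5p: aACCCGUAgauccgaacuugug
let-7c-5p: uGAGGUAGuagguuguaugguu
let-7e-5p: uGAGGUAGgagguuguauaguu
let-7a-5p: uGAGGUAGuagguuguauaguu
miR-125b-5p: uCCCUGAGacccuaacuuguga
miR-125a-5p: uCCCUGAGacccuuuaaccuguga

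Counting positions from 1 at the 5′ end, miR-99a and miR-100 differed by a single substitution, U16A, and miR-99a and miR-99b by A1C, U11A, U16C and U21C. Relative to let-7a, let-7c carries A19G and let-7e carries U9G. miR-125a and miR-125b share their first 13 bases. The lengths are 22 nt, or 24 nt for miR-125a, so reads per gene were compared without a length correction. 1 mature sequence can come from several genes. miR-125b is made by mir-125b-1 and mir-125b-2, let-7c by let-7c-1 and let-7c-2, and let-7a by let-7a-1 and let-7a-2. In the recovered libraries the copies of a pair differed by 0 to 14 reads, at most 7.84% of the larger value. Their reads therefore carry no information on which copy was active. mir-99a, mir-100 and the 3 members on chromosome 17 each have a mature sequence of their own.

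On GRCm38, the chromosome 16 locus runs over 47408 bp of the plus strand, in introns of the noncoding gene Mir99ahg. There let-7c-1 (chr16:77599657-77599750) lies 656 bp after mir-99a (chr16:77598936-77599000) and 46522 bp before mir-125b-2 (chr16:77646273-77646343). The chromosome 17 locus is compact, with mir-99b (chr17:17830188-17830257), let-7e (chr17:17830352-17830444) and mir-125a (chr17:17830812-17830879) within 692 bp of the plus strand. mir-99b and let-7e lie in an intron of Spaca6, a protein-coding gene, and mir-125a overlaps an annotated exon of it. The chromosome 9 locus covers 50578 bp of the plus strand in introns of 3110039I08Rik, a noncoding gene. mir-100 (chr9:41531425-41531504) lies 5211 bp before let-7a-2 (chr9:41536716-41536811), and mir-125b-1 (chr9:41581926-41582002) follows 45114 bp after that. GENCODE M21 gave these positions.

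The loop between the arms is shown for let-7c-1 and let-7e, with GGAG, the motif that LIN28 is known to bind, in capitals.
let-7c-1 loop: uagaguuacacccugGGAGuuaa
let-7e loop: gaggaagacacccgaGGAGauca
The letters GGAG were searched on the RNA strand of each hairpin. They were found between the arms of 8 of 11 let-7 hairpins, counting mir-98, and of 52 of all 644 mouse hairpins with both arms placed (8.07%). The let-7 hairpins without them were let-7b, let-7c-2 and mir-98. let-7c reads can come from let-7c-1 or let-7c-2, so they cannot be tied to a hairpin with the letters. The loops of let-7a-2, mir-99b and mir-125b-2 were not analysed here. The letters were in none (0 of 4) of the loops of mir-99a, mir-100, mir-125a and mir-125b-1. A match is a description of the sequence and not a site.

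Across the 9 members, NCs had more miR-99a, miR-100, miR-125b and let-7c than ESCs. With limma-voom over 327 miRNA genes that had at least 10 reads in 3 or more libraries, 5 of the 9 members were higher in NCs at a Benjamini-Hochberg adjusted p-value under 0.05. Of all genes tested, 9.79% were called higher. By limma-voom 0 members were lower at this threshold (5.81% of all genes), and 0 at an unadjusted p-value under 0.05, since all 9 log2 fold changes (FC) were above 0. By the ratio of the deposited means scaled to equal sums, mir-99b, mir-125a and let-7a-2 were below 0, at -0.13, -0.51 and -0.18. By limma-voom the median log2 FC of the 9 members was 1.56, against a median of -0.04 over the 327 genes. A term for library C brought the members called to 7, with a background of 23.9% higher. Libraries A and B alone gave 8 members, with a background of 29.6%. The 9 members lie in 3 loci and 4 of them share their reads with another gene copy, so they are not independent counts. mir-100, among those called, passed the filter only through NCs, where it is high.

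**Figure D1:**
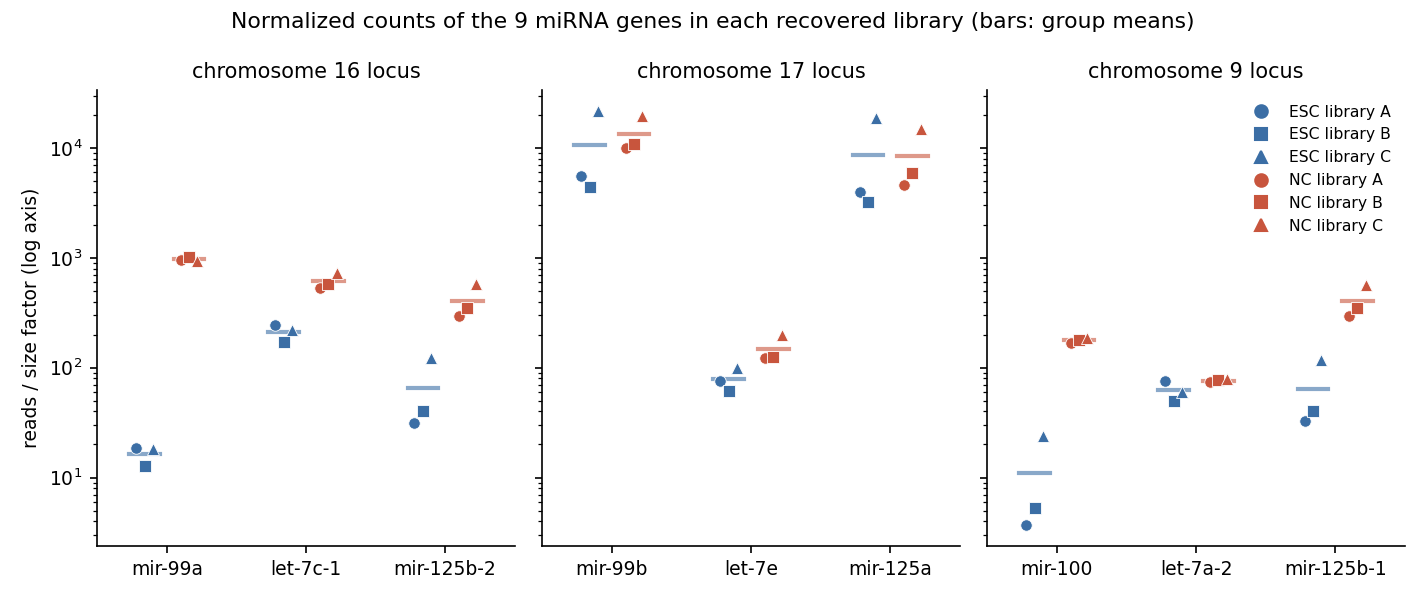
Normalized counts (reads divided by the size factor, log axis) of the 9 members in each recovered library, with ESCs in blue, NCs in red, circles for library A, squares for B, triangles for C and bars for group means. mir-99a rose from between 12.8 and 18.5 to between 934 and 1019, while let-7a-2 overlapped between the groups and library C lay above A and B for mir-99b and mir-125a.

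mir-99a on chromosome 16 had the largest change of the 9. Its normalized counts were 18.5, 12.8 and 18.3 in ESC libraries A, B and C, and 966, 1019 and 934 in the NC libraries. These rest on 10 to 30 reads in ESCs and 546 to 2228 in NCs. The groups were far apart and the libraries within each were close. The log2 FC was 5.84 (SE 0.30, n = 3 and 3, limma-voom adjusted p-value 9.65e-05). It ranked 6 of 327 by log2 FC. The 327 leave out genes whose reads were not resolved. One of them, mir-10a, was 353-fold higher in NCs by the deposited means, against 58.9-fold for mir-99a. The level rank of mir-99a among miRNAs above 0 moved from 290 of 549 in ESCs to 62 of 602 in NCs.

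let-7c-1, its neighbour 656 bp downstream, rose less. ESC libraries held 243, 171 and 221 and NC libraries 535, 575 and 725 normalized counts. No NC library overlapped an ESC library. The log2 FC was 1.56 (SE 0.26, limma-voom adjusted p-value 0.00958). Leaving out ESC library B gave an adjusted p-value of 0.0548 and leaving out NC library B gave 0.0538. let-7c-2, the other gene with the same mature sequence, had nearly the same values, with a log2 FC of 1.56 (SE 0.27).

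mir-125b-2 had 31.4, 40.5 and 122 normalized counts in ESCs and 293, 352 and 580 in NCs. All NC libraries were above all ESC libraries, and library C was the highest in each group. The log2 FC was 3.10 (SE 0.52, limma-voom adjusted p-value 0.00958), and without ESC library A or B the adjusted p-value was 0.0597 or 0.0626. Its copy on chromosome 9, mir-125b-1, had 32.7, 40.5 and 119 in ESCs and 295, 351 and 566 in NCs, with a log2 FC of 3.07 (SE 0.50, limma-voom adjusted p-value 0.00926). Without ESC library A or B the adjusted p-value of mir-125b-1 was 0.0546 or 0.0562. Both genes give 1 change of miR-125b and not 2.

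mir-100 on chromosome 9 was the least abundant member in ESCs. Its normalized counts were 3.70, 5.33 and 23.7 in ESCs, from 6, 5 and 13 reads, and 166, 177 and 188 in NCs. NC libraries agreed closely, while ESC library C was 5.35-fold above the geometric mean of A and B. The log2 FC was 4.72 (SE 0.54, limma-voom adjusted p-value 0.00177). The size of the change depended on ESC library C, as NCs were 38.0-fold higher in libraries A and B and 7.92-fold higher in library C. mir-100 passed the filter of 10 reads in 3 libraries only through NCs, the group where it is high. Its call is therefore not independent of the filter. With at least 10 reads asked of every library it was not tested, and 4 of 8 members were called higher (7.63% of genes).

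let-7a-2, between mir-100 and mir-125b-1, showed no change past the threshold. It had 76.4, 50.1 and 60.3 normalized counts in ESCs and 73.7, 76.8 and 78.7 in NCs. The groups overlapped, with ESC library A inside the NC range. The log2 FC was 0.28 (SE 0.25, limma-voom adjusted p-value 0.585), 0.25 with the term for library C and 0.20 in libraries A and B. let-7a-1, the gene with the same mature sequence, had a log2 FC of 0.23 (SE 0.24).

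The chromosome 17 locus was already abundant in ESCs, and over all 6 libraries 0 of its 3 members passed the test. Of the summed means its members held 1.67% in ESCs and 1.37% in NCs. The shares were 0.0254% and 0.124% for the chromosome 16 locus, and 0.0119% and 0.0410% for the chromosome 9 locus. The chromosome 16 and chromosome 9 shares include reads that may come from other gene copies. mir-99b had 5611, 4455 and 21661 normalized counts in ESCs and 10105, 10801 and 19498 in NCs. mir-125a had 4007, 3214 and 18620 in ESCs and 4563, 5875 and 14760 in NCs. In both, library C lay far above A and B and the groups overlapped. In libraries A and B taken alone, both NC values were above both ESC values for mir-99b and for mir-125a.

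For mir-99b the log2 FC over all libraries was 0.68 (SE 0.61, limma-voom adjusted p-value 0.597). It was 0.64 (adjusted p-value 0.0355) with the term for library C and 1.06 (adjusted p-value 7.88e-06) in libraries A and B. For mir-125a the values were 0.24 (SE 0.74, limma-voom adjusted p-value 0.895), 0.21 (adjusted p-value 0.396) and 0.51 (adjusted p-value 0.0103). In library C the direction was the opposite, with log2 FC of -0.15 for mir-99b and -0.34 for mir-125a. The NC mean of mir-99b could be written with 3 sets of whole reads and that of mir-125a with 2. The set used was the only one with libraries A and B within 2-fold of each other. The other sets gave a log2 FC of -0.41 or 0.56 for mir-99b and -0.42 for mir-125a.

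let-7e lies between them. It had 76.4, 60.8 and 98.7 normalized counts in ESCs and 121, 126 and 197 in NCs. Every NC library was above every ESC library. The log2 FC was 0.94 (SE 0.30, limma-voom adjusted p-value 0.0889), and it was 0.87 with the term for library C (adjusted p-value 0.00107) and 0.81 in libraries A and B (adjusted p-value 0.00109). In all, 6 of the 9 members had no overlap between groups and were higher in NCs, against 16.5% of the genes tested.

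**Figure D2:**
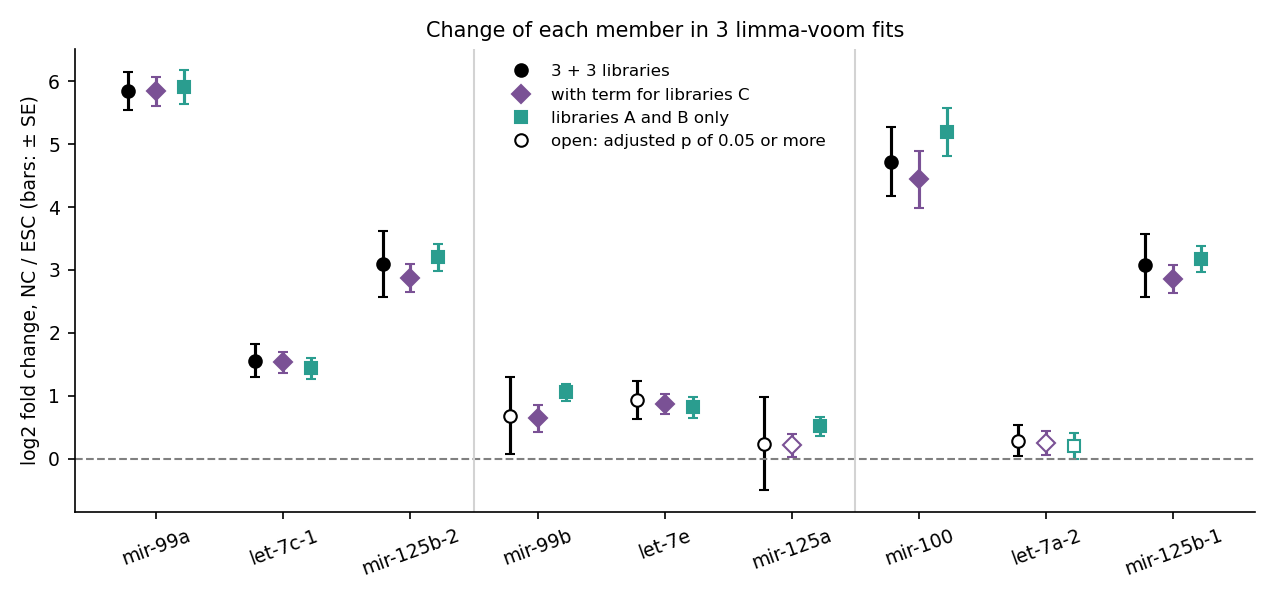
Log2 FC of NCs over ESCs (y axis, bars are ± SE) for the 9 members in 3 limma-voom fits, all 6 libraries (black circles), with a term for library C (purple diamonds) and libraries A and B only (green squares), filled where the adjusted p-value is under 0.05. mir-99a stayed between 5.84 and 5.91 in the 3 fits, and let-7a-2 was open in each.

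**Figure D3:**
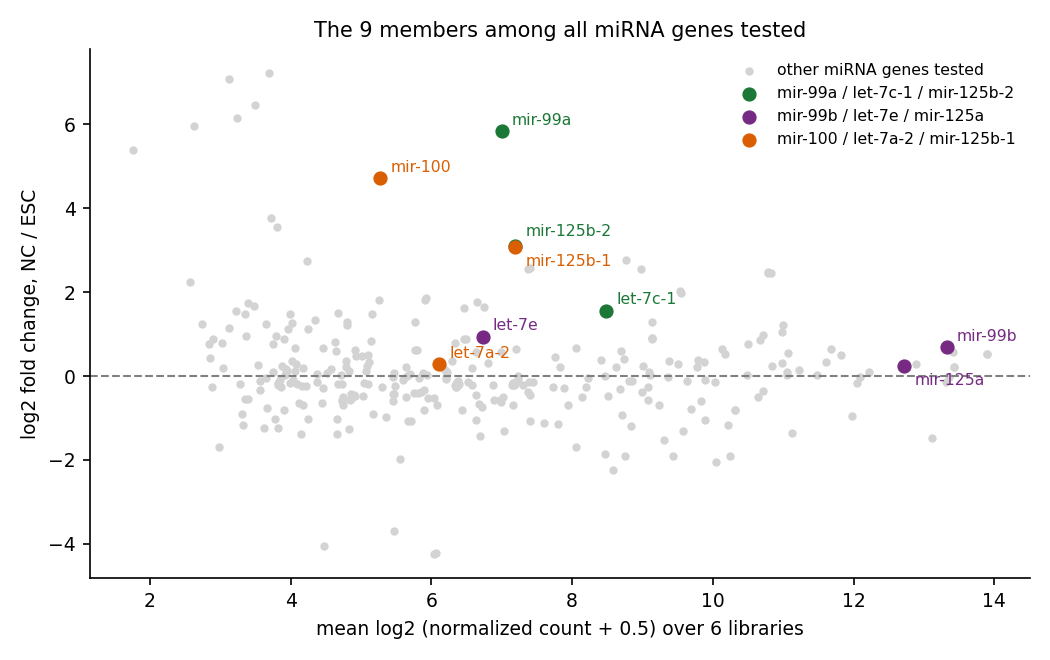
Log2 FC of NCs over ESCs (y axis) against the mean log2 of the normalized count plus 0.5 over 6 libraries (x axis) for the 327 miRNA genes tested, with the members coloured by locus and all others in grey. mir-99a, mir-100 and the 2 mir-125b genes lie in the upper part, at log2 FC of 5.84, 4.72, 3.10 and 3.07, and let-7a-2 and mir-125a lie near 0.

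To compare each let-7 member with its neighbours without any scaling between libraries, reads were divided within each library. On chromosome 16 the ratio of mir-99a to let-7c-1 reads was 0.0761, 0.0750 and 0.0826 in ESCs and 1.80, 1.77 and 1.29 in the NC libraries. Thus the reads counted for let-7c-1 outnumbered miR-99a reads in every ESC library and were outnumbered in every NC library. Whether reads shared with let-7c-2 were counted in full for each copy or split between them is not known. If they were split, this order need not hold for all let-7c reads in NCs. The log2 ratio changed by 4.32 (19.9-fold; SE 0.29, limma over 326 ratios, adjusted p-value 0.000249), and relative to let-7c-1 3.37% of genes were called higher. The ratio was 14.9-fold higher in NC than in ESC library C and 23.0-fold higher in libraries A and B.

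The ratio of mir-125b-2 to let-7c-1 was 0.129, 0.237 and 0.554 in ESCs and between 0.547 and 0.80 in NCs. ESC library C fell just inside the NC range. The log2 ratio was 1.31 higher in NCs (SE 0.55, 95% interval -0.02 to 2.64), with a limma adjusted p-value of 0.0757. With the term for library C the adjusted p-value was 0.00606 (background 5.83% higher). Both miRNAs have a second gene elsewhere, so this ratio is not one of a single locus. The ratio of mir-99a to let-7c-1 shares this limit through let-7c. let-7c-1 took 61.1% to 82.9% of the locus reads in ESCs and 29.6% to 32.4% in NCs.

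On chromosome 9 the reads counted for let-7a-2 fell behind those of both neighbours. let-7a and miR-125b each have a second gene elsewhere, so ratios with let-7a-2 or mir-125b-1 are not those of a single locus. The ratio of mir-100 to let-7a-2 was 0.0484, 0.106 and 0.394 in ESCs and 2.26, 2.31 and 2.39 in NCs. The NC libraries lay within a narrow range above all ESC libraries. The log2 ratio changed by 4.10 (SE 0.71, limma adjusted p-value 0.0120), where 6.13% of genes were called higher relative to let-7a-2. It changed by 4.87 in libraries A and B and by 2.56 in library C. Leaving out ESC library B, NC library A or NC library B gave adjusted p-values of 0.0808, 0.0523 and 0.0586.

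The ratio of mir-125b-1 to let-7a-2 was 0.427, 0.809 and 1.97 in ESCs and 4.01, 4.57 and 7.20 in NCs. Again no NC library overlapped an ESC library. The log2 ratio rose by 2.52 (SE 0.59, limma adjusted p-value 0.0380), by 2.85 in libraries A and B and by 1.87 in library C. Leaving out any 1 library other than ESC library C ended this call, with adjusted p-values of 0.0838 to 0.125. The share of let-7a-2 in the locus reads was 29.7% to 67.8% in ESCs and 9.45% to 13.8% in NCs. Those reads may come in part from the second gene copies.

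On chromosome 17 no shift between let-7e and its neighbours passed the test. The ratio of mir-99b to let-7e was 73.4, 73.3 and 220 in ESCs and 83.3, 85.8 and 99.2 in NCs. For mir-125a to let-7e it was 52.4, 52.9 and 189 in ESCs and 37.6, 46.7 and 75.1 in NCs. Only ESC library C was far from the rest. The log2 ratios changed by -0.24 (95% interval -1.43 to 0.95, limma adjusted p-value 0.704) and -0.66 (95% interval -2.11 to 0.80, limma adjusted p-value 0.410). Libraries A and B gave 0.21 and -0.33, and library C gave -1.14 and -1.32. Under the other whole-number solutions the changes were -0.37 or -1.33 for mir-99b and -1.27 for mir-125a. Relative to let-7e, 5.83% of genes were called higher and 22.4% lower. With the term for library C the limma adjusted p-value was 0.486 for mir-99b to let-7e. For mir-125a to let-7e it was 0.0553 (unadjusted 0.0420) at the same change of -0.66. The 95% intervals above are from the fit without that term. They leave room for changes of either sign, but not for one as large as that of mir-99a to let-7c-1. let-7e held 0.244% to 0.789% of the locus reads in ESCs and 0.571% to 0.821% in NCs.

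**Figure D4:**
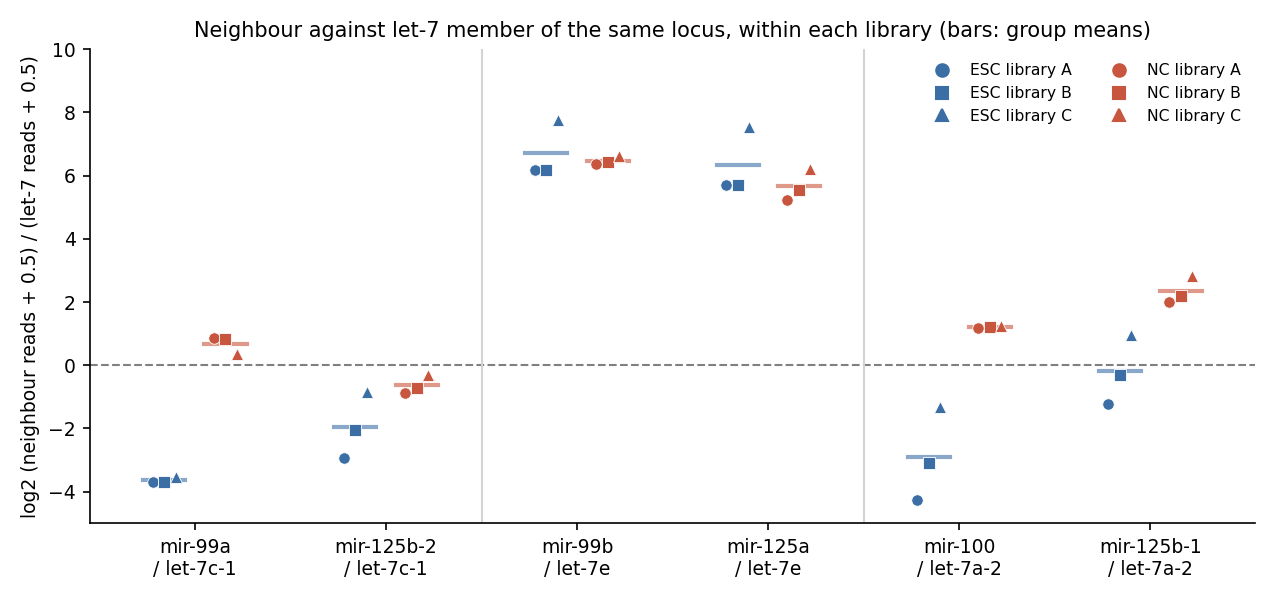
Log2 ratio of neighbour reads to let-7 reads of the same locus (y axis, 0.5 reads added to each) for the 6 neighbours, in ESC (blue) and NC (red) libraries A (circles), B (squares) and C (triangles), with bars for group means. For mir-99a the libraries go from between -3.69 and -3.53 in ESCs to between 0.36 and 0.85 in NCs, and for both neighbours of let-7e the groups overlap.

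The loci were then set against each other in the same libraries, as the difference of 2 such log2 ratios. The change of mir-99a to let-7c-1 exceeded that of mir-99b to let-7e by 4.56, and the change of mir-100 to let-7a-2 exceeded it by 4.34. For miR-125 the excess over mir-125a to let-7e was 1.97 with mir-125b-2 to let-7c-1 and 3.18 with mir-125b-1 to let-7a-2. In each of the 4 the NC libraries did not overlap the ESC libraries, and the excess was at least 1.85 in library C alone. A 2-sided exact permutation test of 3 against 3 libraries gave p = 0.10 for each, the smallest it allows, and 0.125 adjusted over 20 ratios. All 4 use let-7c-1 or let-7a-2 reads, which a second gene copy shares, so they are not contrasts of single loci. They also rest on the chosen NC reads of mir-99b or mir-125a, and the other whole-number solutions were not run for them.

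The neighbours of each let-7 gene were also set against each other. The ratio of mir-99a to mir-125b-2 was 8.01-fold higher in NCs and that of mir-100 to mir-125b-1 was 2.98-fold higher, both without overlap between groups (exact permutation p = 0.10, adjusted 0.125). The latter was 4.05-fold in libraries A and B and 1.62-fold in library C. The miR-125b reads in both ratios may come from either gene copy. mir-99b against mir-125a went from 1.40, 1.39 and 1.16 in ESCs to 2.21, 1.84 and 1.32 in NCs, a change of 0.42 in which the groups overlapped (exact permutation p = 0.30, adjusted 0.333). These NC ratios rest on the chosen whole-number solutions of both genes.

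The composition of each seed family was counted with gene copies of 1 mature sequence taken once. This assumes that shared reads were counted in full for each copy, which is not known. Despite its rise, miR-99a was a minor part of the ACCCGUA family. It took 0.328%, 0.286% and 0.0842% of the family's reads in ESCs and 8.60%, 8.49% and 4.53% in NCs. miR-100 took 0.0657% to 0.119% in ESCs and 0.912% to 1.48% in NCs. miR-99b made up the rest, 99.6% to 99.8% in ESCs and 89.9% to 94.6% in NCs. The NC shares of this family, and its ratios to mir-99b, rest on the chosen whole-number solution of mir-99b. Against mir-99b, mir-99a reads were 5.19 higher in NCs on the log2 scale and mir-100 reads 3.75 higher (exact permutation p = 0.10 for each, adjusted 0.125).

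The CCCUGAG family had the same order. miR-125b was 0.779%, 1.25% and 0.653% of its reads in ESCs and 6.03%, 5.66% and 3.78% in NCs, and miR-125a was the remainder. The log2 ratio of mir-125b-2 to mir-125a was 2.61 higher in NCs, with no overlap between groups (exact permutation p = 0.10, adjusted 0.125). It was 2.63 in libraries A and B and 2.57 in library C, so with the reads used this ratio hardly depended on library C. The NC ratios and shares of this family rest on the chosen whole-number solution of mir-125a, and the other was not run for them.

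Within the let-7 family, counted by name as 10 mature miRNAs, let-7c had the largest share in NCs. Seeds other than those of let-7a, let-7c and let-7e were not checked. let-7c made up 24.3%, 21.1% and 25.9% of let-7 reads in ESCs and 48.5%, 50.0% and 53.5% in NCs. let-7e had 7.51% to 11.6% in ESCs and 10.9% to 14.5% in NCs, and let-7a 6.19% to 7.66% in ESCs and 5.80% to 6.68% in NCs. The summed let-7 level was 998, 810 and 853 normalized counts in ESCs and 1103, 1151 and 1356 in NCs. Relative to let-7e, let-7c was 0.63 higher in NCs on the log2 scale, and relative to let-7a 1.22 higher, each without overlap (exact permutation p = 0.10, adjusted 0.125).

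**Figure D5:**
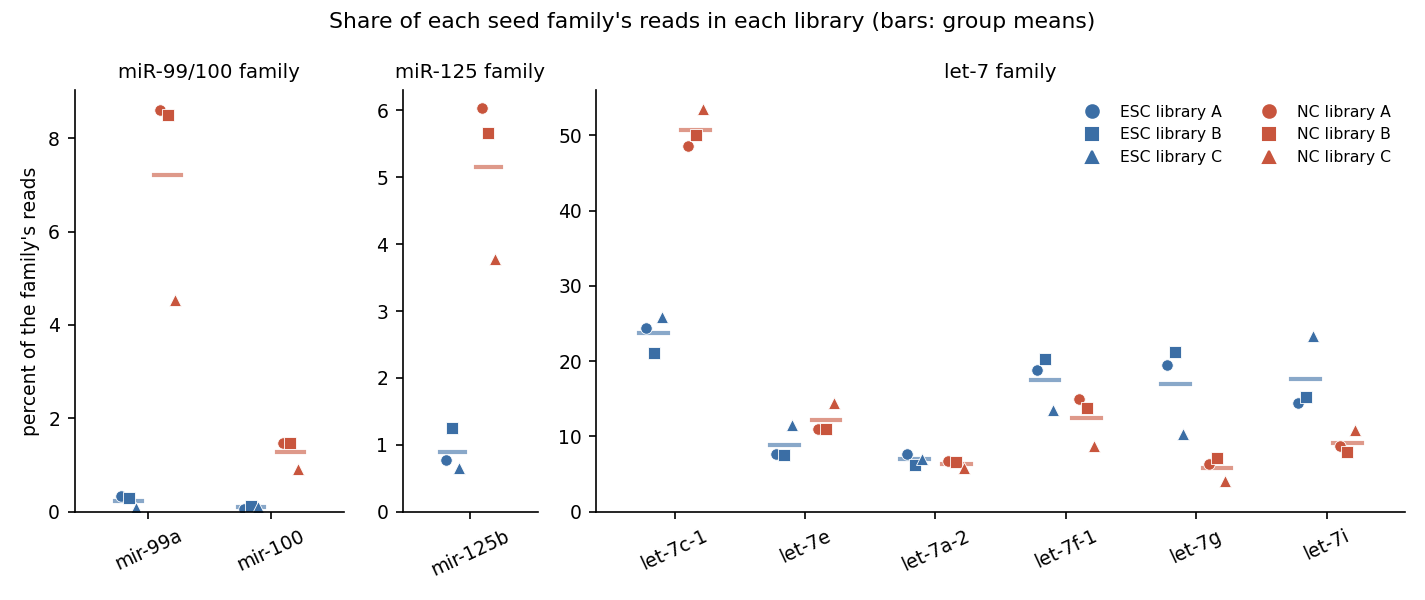
Percent of the reads of each seed family (y axis, separate scales) held by single members in ESC (blue) and NC (red) libraries A (circles), B (squares) and C (triangles), with bars for group means. The share of let-7c-1 lies between 21.1% and 25.9% in ESCs and between 48.5% and 53.5% in NCs, and mir-99a reaches 8.60% of its family.

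Of the other let-7 genes, 10 were in the table and 8 were tested. By limma-voom 1 was called higher, let-7c-2, and 0 lower. At an unadjusted p-value under 0.05 limma-voom had 2 lower, let-7d (log2 FC -1.37, adjusted p-value 0.0944) and let-7g (-1.04, adjusted p-value 0.109). With the term for library C, let-7g, let-7d, mir-98 and let-7i, 4 of the 8, were called lower, where 21.1% of all genes were. The median log2 FC of the 8 was -0.28, which turned positive under a scaling that shifted all values by 0.44. These 8 include let-7c-2 and let-7a-1, whose reads are those of let-7c-1 and let-7a-2.

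By the Euclidean distance of centred log2 profiles over the 6 libraries, the genes outside the loci most like mir-99a were mir-216a (0.661), mir-216b (1.58) and mir-1251 (1.68). They were rare in ESCs, with means of 0, 0.814 and 0.609, and had means of 22.6, 85.6 and 46.0 in NCs. mir-100 was at a distance of 2.55 from mir-99a and let-7c-1 at 5.31. Most like let-7e were mir-30d (0.431), mir-532 (0.455) and mir-674 (0.531), all nearer to it than its neighbours mir-99b (1.34) and mir-125a (1.86). These distances are a description over 6 libraries, and those of mir-30d, mir-99b and mir-125a use the chosen whole-number solutions in NCs.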

How the data were processed

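Small-RNA libraries of 3 ESC and 3 NC samples were grouped by the sample labels. The deposited file is a table of the authors' own comparison. Per the file headers and the submitters' processing notes, which name DESeq without a version and the build mm10, its 2 signal columns hold normalized counts averaged over each group. Trimming, aligner and miRNA annotation are not given in the sources used here. The deposited fold change, log2 fold change, p-value and adjusted p-value columns were not used.

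Each mean was written as a sum of whole reads over 3 size factors. A single solution was found for 540 of the 549 ESC means above 0 and for 583 of the 602 NC means. For 9 more in NCs, the only solution with libraries A and B within 2-fold was taken. ESC libraries A to C had size factors of 1.62, 0.937 and 0.547, and NC libraries had 2.31, 0.977 and 0.585. On simulated means, all 501 and 550 single solutions were right. Among high simulated NC means 34 of 34 chosen ones were right. There libraries A and B were simulated well within 2-fold of each other, so this could not test the rule of choice. Resolved miRNAs held 24.7% and 18.9% of the summed signal, and depth limits mir-100 and mir-99a in ESCs most.

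The authors deposited means and not counts, so edgeR was not used. Recovered reads were scaled by these size factors and tested with limma-voom (limma 3.58.1, R 4.3.3), with a filter of 10 reads in 3 libraries and Benjamini-Hochberg adjustment over all genes tested. Ratios to a let-7 member used limma on log2 reads with a pseudocount of 0.5. The exact permutation test (scipy 1.17.1) was 2-sided. The pipeline was tested on simulated counts of 621 miRNAs, of which 200 had 4-fold changes. limma-voom called all 112 changed miRNAs that passed the filter and 7 unchanged ones. The simulated libraries had no deviation of library C, so these counts do not give the power or error rate in the real libraries. Members, lists and tests were chosen with earlier results of these data known. Named genes were the 9 members, their copies, the other let-7 genes, marker lists, mir-10a and mir-10b, and for mir-99a and let-7e the 3 nearest profiles.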

Additional observations from a re-analysis of the deposited data

How the results depend on the processing

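No paired analysis was possible because nothing ties a library read from the means to a labelled replicate. The count of 5 members called higher (9.79% of all genes tested) was 8 in libraries A and B (29.6% of all genes). It ranged from 2 to 5 when 1 library was left out (2.94% to 9.44% of all genes). It was 2 without ESC library B (2.94%) and 3 without ESC library A (3.27%). Under every other alternative it lay within 1.5-fold of 5 (3.89% to 23.9% of all genes), and no alternative called a member lower. For mir-99a over let-7c-1 the log2 change was 3.9 in library C and ranged from 4.23 to 4.47 with 1 library left out. For mir-125b-2 over let-7c-1 it was 1.31 and passed with the term for library C, and was 1.71 (also past the threshold) in libraries A and B, 0.53 in library C and 0.82 to 1.86 with 1 library left out. For mir-99b over let-7e it turned to 0.21 in libraries A and B, was -1.14 in library C and ranged from -0.51 to 0.29. For mir-100 over let-7a-2 it was 2.56 in library C and ranged from 3.42 to 4.89. For mir-125b-1 over let-7a-2 it ranged from 2.01 to 3.10, and for mir-125a over let-7e from -0.97 to -0.05, with -1.32 in library C, -1.27 under the other whole-number solution and -0.95 by the deposited means. The exact permutation test could not pass for the changes of 4.32, 4.10 and 2.52, since p = 0.10 is its smallest value. In libraries A and B the spread of ratios to let-7a-2 could not be estimated apart from that of let-7a-2, so those changes are given without a test.

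The log2 ratios of deposited means were 0.35 for mir-99b, -0.036 for mir-125a and 0.29 for let-7a-2. Scaling those means to equal sums shifted every such ratio by -0.48, to -0.13, -0.51 and -0.18. Without mir-10a the shift was 0.44. mir-99b was -0.15 in library C and -0.41 under another whole-number solution. mir-125a was -0.34 in library C, -0.42 under another solution, and ranged from -0.24 to 0.98 with 1 library left out (-0.08 leaving out ESC library A, -0.21 leaving out ESC B and -0.24 leaving out NC C). The cause was not tested. The 5 members called higher kept their direction in each alternative that included them. mir-100 was left out where every library needed at least 10 reads, and mir-125b-2 where gene copies were counted once. The covariate fit by limma-trend, the other whole-number solutions and all ratios within families, between loci and between the 2 neighbours of a let-7 gene, with their permutation tests and library splits, were chosen after seeing the data. Reads of 5 to 30 in ESCs limit mir-99a and mir-100, and intervals cover the spread between libraries only.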

Other observations

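The miR-10 genes, which lie outside these loci and whose seed ACCCUGU resembles that of miR-99/100 without being the same, had the authors' means of 2136 (mir-10a) and 1375 (mir-10b) in ESCs and 754551 and 55789 in NCs. Their NC reads were not resolved, so no test was run on them here.

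Library C differed from A and B by member and not by a common factor. In ESCs it was 5.35-fold above their geometric mean for mir-100, 5.19-fold for mir-125a, 4.33-fold for mir-99b, 3.43-fold for mir-125b-2 and 3.26-fold for mir-125b-1. It was 1.45-fold above for let-7e, 1.19-fold for mir-99a, 1.09-fold for let-7c-1 and 0.974-fold for let-7a-2. In NCs the values were 1.10-fold for mir-100, 2.85-fold for mir-125a, 1.87-fold for mir-99b, 1.81-fold for mir-125b-2, 1.76-fold for mir-125b-1, 1.59-fold for let-7e, 0.941-fold for mir-99a, 1.31-fold for let-7c-1 and 1.05-fold for let-7a-2. mir-125a and mir-99b were among the 3 members furthest from A and B in each group, and mir-100 was the furthest in ESCs.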
